A study of Mus musculus with 4 samples.

Results

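The genes described here are those of the route from the IL-33 receptor into the cell, with 1 adaptor gene of the same family beside them. They are the receptor adaptor gene Myd88, the kinase genes Irak4, Irak1 and Irak2, their inhibitor Irak3, the ubiquitin ligase gene Traf6, the kinase complex genes Tab2 and Map3k7, and Tnfaip3, which encodes the feedback inhibitor A20. Beside them stands Tirap, an adaptor gene best known from Toll-like receptors. They were chosen by name, with earlier results of these data known. Of the 10 genes, 9 had at least 1 probe set named for that gene alone, among 18194 genes with such a probe set on the array. Irak4 was not analysed here. The 9 genes had 25 probe sets in all, and each gene was read from its brightest one, with the others as a check.

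IL-33 is an alarm cytokine released by damaged barrier cells, and it is a main activator of group 2 innate lymphoid cells (ILC2), tissue lymphocytes that secrete type 2 cytokines although they lack antigen receptors. The engaged receptor recruits MyD88, which assembles the IRAK kinases. These hand the signal to TRAF6, whose ubiquitin chains are bound by TAB2 and bring the kinase TAK1 (the product of Map3k7) to the IKK complex and the MAP kinases. NF-kB then enters the nucleus and switches on, among others, the gene of A20, which edits ubiquitin chains and dampens the same route.

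The study compared ILC2 of Ets1-deleted C57BL/6 mice with those of littermate controls, Ets1 being the gene of an ETS family transcription factor. All cells, of both genotypes, had been cultured for 2 weeks on OP9-DL1, stromal cells engineered to carry a Notch ligand, in IL-7 and in IL-33 itself, and ICOS+ cells were sorted for RNA. There were 2 Ets1-deleted and 2 control arrays, and the sources used here do not say how the deletion was made, in which cells, or whether animals were pooled. The labels do not tie the arrays of a group to different mice or wells, and the spread behind each p-value may therefore be technical. Differences are log2 values, Ets1-deleted minus control, ± SE from limma with n = 2 per group, and a call is a Benjamini-Hochberg adjusted p under 0.05 over 10873 tested genes. A gene was tested where its probe set averaged at least 97.4 intensity units, the median of all probe sets.

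The labels were borne out by Ets1, which read 138 and 180 intensity units in the Ets1-deleted arrays and 1272 and 1231 in the controls, and was lower in the Ets1-deleted arrays by 6.88- to 11.4-fold over its 4 probe sets. Which of them lie inside the deletion is unknown here. Of 9 tested ILC2 markers 5 were higher in Ets1-deleted cells and 2 lower, with a median difference of 0.69, where 13.9% of all tested genes were higher and 12.8% lower. Thy1 (1.91 ± 0.11) and Rora (1.29 ± 0.12) were among the higher ones in limma. The lower ones were Klrg1 (-1.60 ± 0.11) and Icos, the gene of the protein used for the sort, which read 4549 and 4894 intensity units in Ets1-deleted and 6293 and 6009 in control arrays. Gata3 (3032 and 2828 intensity units in Ets1-deleted, 2807 and 2741 in control arrays) and Il7r (1955 and 2038, against 1972 and 1880) did not pass and were bright in both groups. Markers of other cells were measured too. Of 7 tested genes that mark mast cells and basophils, 5 were higher in Ets1-deleted cells and 0 lower, with a summed intensity over all measured markers of 3554 to 3680 in Ets1-deleted and 2251 to 2287 in control arrays. Nearly all of that gap lay in Cpa3 (1497 and 1261 in Ets1-deleted, 85.9 and 78.3 in control arrays). The bright marker Mcpt8 (1097 and 1193, against 1337 and 1385) did not pass. Of 9 tested myeloid markers 7 were higher and 0 lower (sums of 3733 to 3767 and 2199 to 2416). Of 5 T cell markers 4 were higher and 0 lower (5511 to 5579 and 2578 to 2598). The brightest of these, Cd3g, read 2715 and 2561 in Ets1-deleted and 1841 and 1893 in control arrays. Larger folds were found for Cd3e (803 and 992, against 103 and 81.6) and Cd247 (897 and 917, against 115 and 96.4). Cd3d read 680 and 679, against 115 and 112, and Cd6 did not pass. Of 3 B cell markers 1 was lower (588 to 596 and 869 to 895), and of 9 markers of OP9 stroma and fibroblasts 1 was higher and 2 lower (3154 to 3176 and 2838 to 3041). The gap in the B cell sums lay in Cd79b (91.6 and 83.5 in Ets1-deleted, 381 and 380 in control arrays). That in the stromal sums lay in Timp3 (879 and 751, against 126 and 152). Pdgfrb (-0.85 ± 0.13) and Cxcl12 (-0.41 ± 0.12) were the lower ones in limma. Some of these markers reached the test only through the group in which they were brighter: Cpa3, Tpsb2 and Hdc, Adgre1, and Cd3e and Cd6 averaged below the limit in the controls, and Cd79b in the Ets1-deleted arrays. Of the others, 3 of 4 mast cell and basophil markers, 6 of 8 myeloid and 3 of 3 T cell markers were higher, and 0 of 2 B cell markers passed. No marker was listed at 0. The mast cell receptor genes Fcer1a and Ms4a2 and the mast cell protease gene Mcpt4, the myeloid genes Cd14, Itgam and Elane, the T cell genes Cd4, Cd8a, Cd8b1 and Cd5, and the B cell genes Cd79a, Pax5, Ms4a1 and Ebf1 and the stromal gene Dlk1 averaged below the limit over the 4 arrays and were not tested. Of these, Mcpt4 still read 112 and 115 in Ets1-deleted and 73.9 and 80.2 in control arrays, and Ms4a2 92.7 and 104, against 72.0 and 63.7. Fcer1a, Cd14, Cd79a and Dlk1 were also higher in both Ets1-deleted arrays, by less. Cd4, Ms4a1 and Ebf1 were lower in both, and the groups of the other untested markers overlapped. The part of these cells in the results below was not tested. In bulk samples a higher or lower share of a cell type and more or less RNA per cell cannot be told apart.

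Of the 9 genes, 4 passed the test: Tnfaip3 and Irak2 were higher in the Ets1-deleted arrays, and Tirap and Myd88 were lower. Irak1, Irak3, Traf6, Tab2 and Map3k7 did not pass with their brightest probe sets. Of the 9 genes 44.4% (4 of 9) passed, against 26.7% of all tested genes. The median difference of the 9 genes was -0.14 and that of all tested genes -0.004, and the median size of the difference was 0.26 here and 0.19 over all tested genes. In 7 of the 9 genes the values of the groups did not overlap, which was so for 62.6% of all tested genes.

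**Figure D1:**
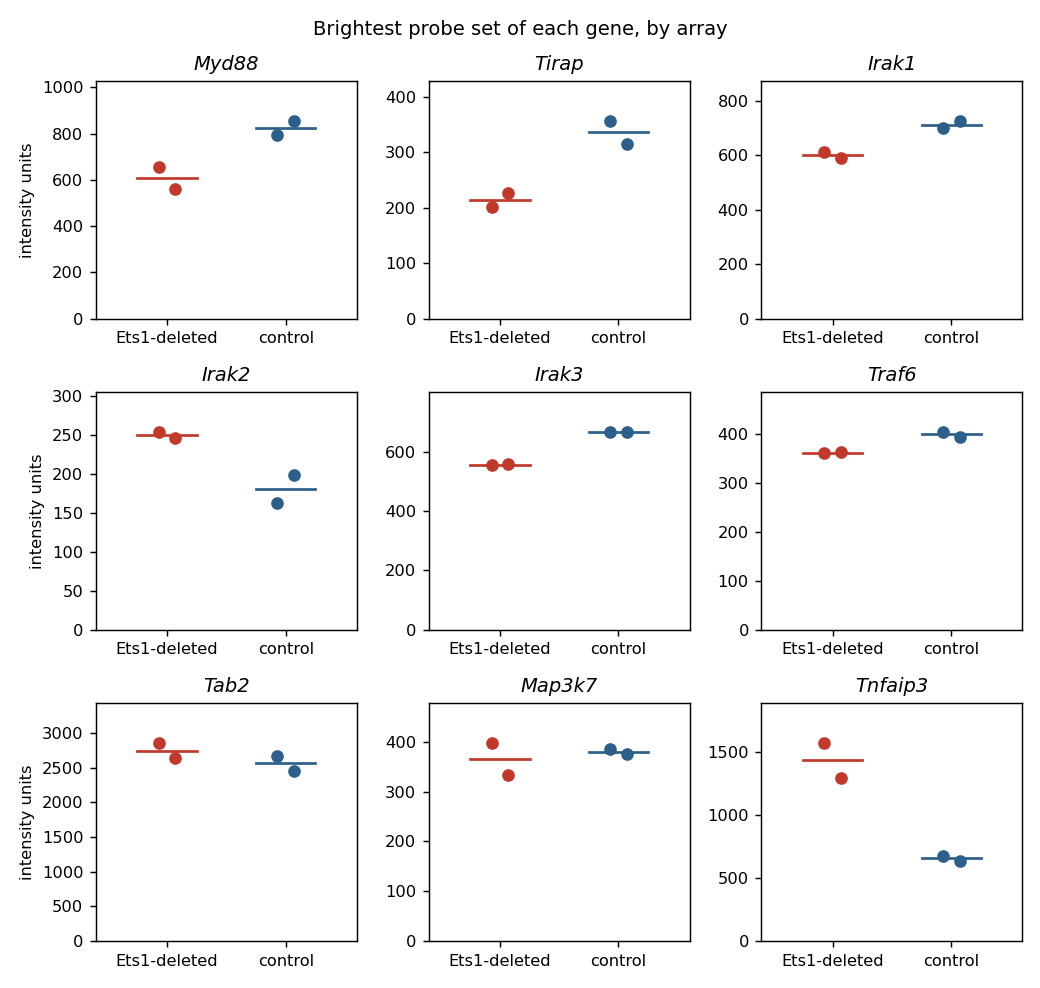
Intensity (linear axis, intensity units) of the brightest probe set of each of the 9 genes, with 1 point per array, Ets1-deleted arrays in red, control arrays in blue and the group mean as a line. The Tnfaip3 points lie furthest apart (1571 and 1294 in Ets1-deleted, 677 and 634 in control arrays), while those of Tab2 and Map3k7 overlap.

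Tnfaip3, the A20 gene, differed most of the 9. It read 1571 and 1294 intensity units in the Ets1-deleted arrays and 677 and 634 in the controls (probe set 1433699_at). Both Ets1-deleted arrays were above both controls, and the arrays of a group differed by 0.28 (Ets1-deleted) and 0.10 (control) on the log2 scale. The difference was 1.12 ± 0.12, or 2.18-fold (limma, adjusted p = 3.14e-05). The interval at 95% ran from 0.85 to 1.39. Only 3.51% of all tested genes differed by more, in either direction. The dimmer of its 2 probe sets (1450829_at) read 149 and 143 in Ets1-deleted arrays and 105 and 97.7 in control arrays, again without overlap. Its difference was smaller, 0.53 ± 0.11 (limma with 1 row per probe set, adjusted p = 0.0044), at values close to the limit for dim probe sets. Tnfaip3 passed in each of 13 alternative settings, with differences between 0.83 and 1.26.

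The promoter of Tnfaip3 is shown because A20 is a known NF-kB target and gave the largest rise of the set, and that of Tirap because it gave the largest fall. Both are RefSeq windows of 300 bases on GRCm38.p6, 250 before the start of the transcript and 50 after it, printed 5′ to 3′ along the gene, and both lie on the minus strand. The Tnfaip3 window is chr10:19015361-19015660 and the Tirap window chr9:35199856-35200155. RefSeq lists 2 windows for each gene, and the one holding more matches is given. Capitals mark every match, on either strand, to a loose form of the NF-kB site, GGG and CC with 5 bases of any kind between them, and to CCGGAA, the ETS core with 2 flanking bases (TTCCGG when read on the other strand).
Tnfaip3: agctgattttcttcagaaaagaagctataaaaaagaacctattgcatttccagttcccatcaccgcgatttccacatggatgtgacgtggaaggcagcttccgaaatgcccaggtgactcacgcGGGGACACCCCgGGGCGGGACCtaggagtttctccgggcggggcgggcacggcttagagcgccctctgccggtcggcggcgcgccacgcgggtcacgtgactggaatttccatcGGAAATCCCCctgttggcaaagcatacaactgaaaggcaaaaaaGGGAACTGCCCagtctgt
Tirap: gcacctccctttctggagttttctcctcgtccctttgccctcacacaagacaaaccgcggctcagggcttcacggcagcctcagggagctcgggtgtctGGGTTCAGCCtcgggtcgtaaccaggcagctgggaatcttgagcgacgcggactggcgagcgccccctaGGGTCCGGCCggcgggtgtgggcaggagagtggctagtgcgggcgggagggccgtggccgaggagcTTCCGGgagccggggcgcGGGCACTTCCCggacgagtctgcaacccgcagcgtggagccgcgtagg

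In the Tnfaip3 window 4 stretches matched the NF-kB form. The one nearest to the start, GGAAATCCCC, begins 12 bases before it, and GGGGACACCCC and GGGCGGGACC begin 126 and 114 bases before it. GGGAACTGCCC begins at base 33 of the transcript. The Tirap window held 3 stretches of the NF-kB form and 1 CCGGAA match, which begins 16 bases before the start. Neither the CCGGAA form nor the longer CCGGAAGT, which contains it, was present in the windows of Tnfaip3, Myd88 or Irak2. Over the 14 windows of the 9 genes, 10 held the NF-kB form, 3 held CCGGAA (both windows of Tirap and that of Map3k7) and 0 held CCGGAAGT. The 2 windows of Tirap overlap, as do the 2 of Irak1, so shared sites were counted in both. Counted by gene, 7 of the 9 held the NF-kB form and 2 held CCGGAA. Of all 32851 RefSeq windows of this length, 50.8% held the NF-kB form, 14.9% CCGGAA and 3.89% CCGGAAGT. These matches describe the letters of the windows, and no binding was measured here.

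Both adaptor genes were lower in the Ets1-deleted arrays. TIRAP, also called Mal, bridges MyD88 to certain Toll-like receptors and is best known from myeloid cells. Tirap read 200 and 227 intensity units in the Ets1-deleted arrays and 357 and 315 in the controls (1457676_at). Both Ets1-deleted arrays were below both controls. The difference was -0.65 ± 0.12, or 0.636-fold (limma, adjusted p = 0.00155). Its second probe set (1418685_at) read 166 and 149 in Ets1-deleted and 293 and 253 in control arrays, a difference of -0.80 ± 0.12 (limma with 1 row per probe set, adjusted p = 0.000446). With both probe sets lower and without overlap, Tirap passed in all 13 alternative settings, between -0.83 and -0.56. A larger difference was found for 10.1% of all tested genes.

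Tirap lies near Ets1 on chromosome 9. RefSeq (GRCm38.p6) lists 3 protein-coding genes between them, of which Kirrel3 was below the limit for dim genes. St3gal4, a sialyltransferase gene, read 112 and 119 intensity units in Ets1-deleted and 80.7 and 103 in control arrays, with a difference of 0.33 ± 0.13 (limma, adjusted p = 0.0817). Dcps, which encodes an enzyme that degrades the cap of decayed mRNA and is the next gene to Tirap, read 905 and 1012 in Ets1-deleted and 799 and 962 in control arrays. Its difference was 0.13 ± 0.13 (limma, adjusted p = 0.513). Neither of the tested genes between Ets1 and Tirap passed. St3gal4 averaged below the limit for dim genes in the controls, so it was tested only because of its Ets1-deleted values. The Dcps values of the groups overlapped. Whether the place of Tirap near the deleted gene bears on its level was not tested.

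Myd88 encodes the adaptor that the receptors of IL-33, IL-1 and IL-18 all use. Its single probe set (1419272_at) read 654 and 562 intensity units in the Ets1-deleted arrays and 792 and 856 in the controls, without overlap. The difference was -0.44 ± 0.12, or 0.736-fold (limma, adjusted p = 0.0161). The 2 Ets1-deleted arrays lay 0.22 apart on the log2 scale, and 19.3% of all tested genes differed by more than Myd88. The call was lost without control 2 (-0.39, adjusted p = 0.0947 in limma) and without Ets1-deleted 2 (-0.33, adjusted p = 0.0912). It was also lost by a small margin when the floor of each array was subtracted (-0.48, adjusted p = 0.0505).

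Among the IRAK genes only Irak2 passed. IRAK2 joins the MyD88 complex downstream of IRAK4 and is known to prolong the signal in macrophages. Irak2 read 255 and 247 intensity units in the Ets1-deleted arrays and 163 and 199 in the controls (1436507_at, its single probe set). The Ets1-deleted arrays lay close together and above both controls, which were 0.29 apart on the log2 scale. The difference was 0.47 ± 0.12, or 1.39-fold (limma, adjusted p = 0.0132). Without control 1, the lower of the controls, it was 0.33 and the call was lost (adjusted p = 0.166 in limma), and the other 12 alternatives kept it.

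Irak1 encodes the kinase that IRAK4 activates and that then binds TRAF6. It read 613 and 592 intensity units in the Ets1-deleted arrays and 700 and 728 in the controls (1438120_x_at). The groups did not overlap, but the difference of -0.24 ± 0.11 did not pass (limma, adjusted p = 0.123, interval at 95% from -0.48 to -0.01). An _x_at probe set can hold probes that also match other transcripts, by the array maker's naming. The other 3 Irak1 probe sets differed by -0.18, -0.03 and -0.10, and none of them passed.

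Irak3 encodes IRAK-M, an IRAK without effective kinase activity that restrains the complex and is known mainly from macrophages. It read 553 and 558 intensity units in the Ets1-deleted arrays and 666 and 666 in the controls (1435040_at). The arrays of each group lay within 0.014 of each other on the log2 scale, and the groups did not overlap. The difference of -0.26 ± 0.11 did not pass (limma, adjusted p = 0.0965). The SE rests on variance shared across genes as well as on these 4 values. The second Irak3 probe set (1430704_at) read 544 and 502 in Ets1-deleted arrays, between the 442 and 549 of the controls, and differed by 0.09 ± 0.13 (adjusted p = 0.688 in limma with 1 row per probe set). Its probe sets thus had opposite signs.

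Traf6 gave no single answer. TRAF6 is the ubiquitin ligase on which the IL-1 receptor family and the Toll-like receptors converge. The brightest of its 5 probe sets (1421377_at) read 361 and 363 intensity units in the Ets1-deleted arrays and 405 and 394 in the controls, a difference of -0.14 ± 0.11 (limma, adjusted p = 0.387). The next (1421376_at) read 343 and 406 in Ets1-deleted and 300 and 284 in control arrays. Both sets separated the groups, in opposite directions, and the second missed the threshold narrowly (0.36 ± 0.12, adjusted p = 0.0508 in limma with 1 row per probe set). Another bright set differed by -0.18, and the other 2 were below the limit for dim probe sets.

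Tab2 and Map3k7 encode the complex that acts on the chains made by TRAF6: TAB2 binds them and TAK1 is the kinase. Tab2 read 2858 and 2637 intensity units in the Ets1-deleted arrays and 2671 and 2456 in the controls (1423462_at). The groups overlapped, and the difference was 0.10 ± 0.11 (limma, adjusted p = 0.571, interval at 95% from -0.15 to 0.35). Its second probe set (1451003_at) read 1968 and 1754 in Ets1-deleted arrays and 1354 and 1118 in controls. There the groups were apart, and the difference of 0.59 ± 0.13 passed (adjusted p = 0.00468 in limma with 1 row per probe set). With the mean over both sets Tab2 passed as well (0.35, adjusted p = 0.0291 in limma), so whether Tab2 differed depends on the probe set.

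Map3k7 read 398 and 334 intensity units in the Ets1-deleted arrays, on both sides of the 385 and 375 of the controls (1419988_at). The difference was -0.06 ± 0.12 (limma, adjusted p = 0.759, interval at 95% from -0.32 to 0.20). Of its 6 probe sets 1 was below the limit for dim probe sets, and the other 5 differed by between -0.16 and 0.07. None of them passed. Over all 25 probe sets of the 9 genes, 22 were above the limit and 7 passed in limma with 1 row per probe set. These were both sets of Tnfaip3, both of Tirap, the single ones of Myd88 and Irak2, and the dimmer one of Tab2.

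**Figure D2:**
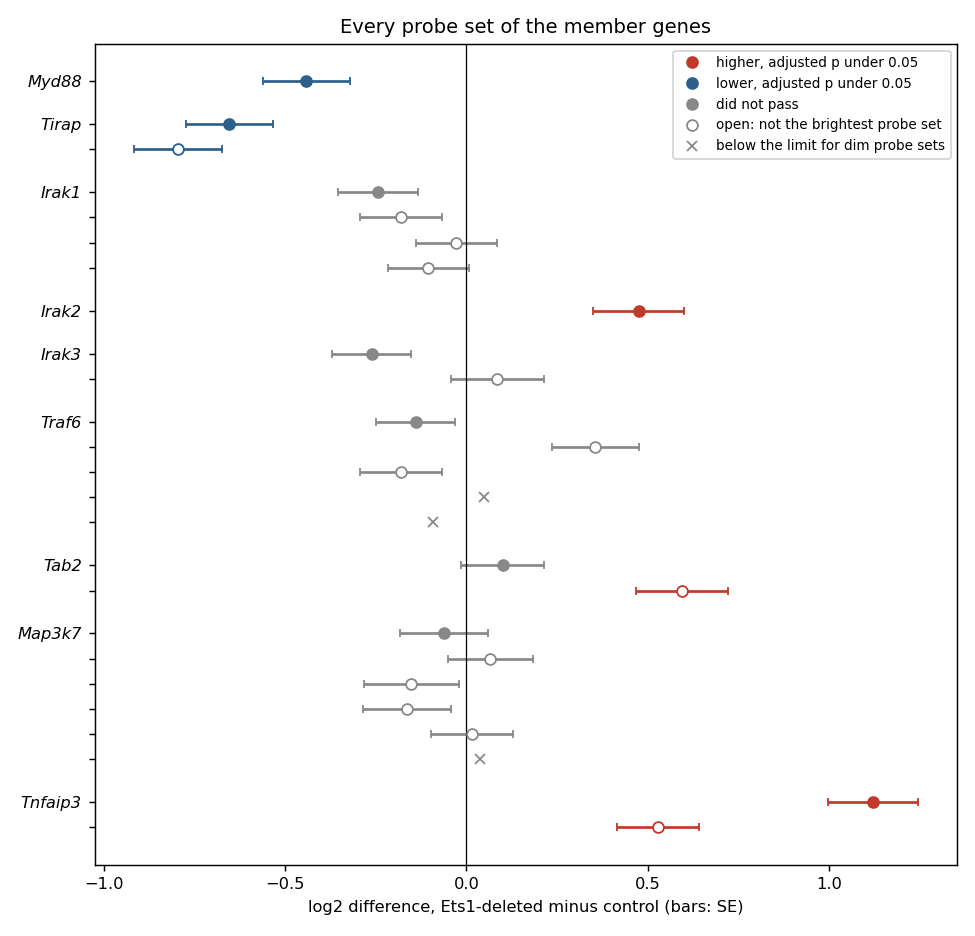
Log2 difference (Ets1-deleted minus control) of each of the 25 probe sets, with SE bars from limma with 1 row per probe set, grouped by gene and sorted by brightness. Filled points are the brightest sets, colour marks an adjusted p under 0.05 and crosses are the 3 sets below the limit for dim probe sets. Both sets of Tnfaip3 (1.12 and 0.53) and both of Tirap (-0.65 and -0.80) moved alike, while sets of Traf6, Irak3 and Map3k7 lie on both sides of 0.

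Other genes of the route were read in 6 lists of 58 genes, of which 50 were tested. Of these 9 were higher and 8 lower (34.0%, against 26.7% of all tested genes), with a median difference of 0.04. The lists went different ways. Each count below is to be read against the 13.9% of all tested genes that were higher and the 12.8% that were lower. Among the ligand, the receptors and their brake, 4 of 6 tested genes were higher and 0 lower, and the list median was 0.71. Without the ligand Il33, it was 3 of 5, with a median of 0.59. Il1r1, the IL-1 receptor gene, read 370 and 373 intensity units in Ets1-deleted and 102 and 106 in control arrays, and rose by 1.84 ± 0.11 (limma, adjusted p = 1.63e-07), or by 0.89 with the mean over its probe sets. Il18r1, the gene of a chain of the IL-18 receptor, read 1469 and 1514 in Ets1-deleted and 611 and 643 in control arrays, and rose by 1.25 ± 0.11. Il18rap, the gene of the accessory chain of that receptor, differed by -0.24 ± 0.13 (adjusted p = 0.192 in limma). The receptors of IL-1 and IL-18 both signal through MyD88. Sigirr, which encodes a receptor of the same family that restrains this signal, rose by 0.59 ± 0.11 (adjusted p = 0.00185 in limma). Il33 itself was 144 and 146 in Ets1-deleted arrays, and 80.8 and 81.6 in controls, below the limit for dim genes, so it was tested only because of its Ets1-deleted values (0.84 ± 0.11, and 1.82 with the array floor subtracted). Il1rap, the shared receptor chain of IL-1 and IL-33, differed by -0.10 ± 0.12 (adjusted p = 0.612 in limma), and Il1rl1, which encodes the receptor chain specific to IL-33, was not analysed here.

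Of 12 tested genes among the other TIR adaptors and the partners of IRAK and TRAF6, 0 were higher and 0 lower in limma, 1 had an unadjusted p under 0.05, and the list median was 0.13. The smallest unadjusted p in this list belonged to Sqstm1 (0.25 ± 0.11, adjusted p = 0.12) and Ticam1 (0.30 ± 0.14, adjusted p = 0.14). Ticam1, the adaptor gene TRIF, passed without control 2 (0.48, adjusted p = 0.0277). Ube2n, the conjugating enzyme that works with TRAF6, read 1714 and 1493 intensity units in Ets1-deleted and 1617 and 1577 in control arrays, a difference of 0.0024 ± 0.12.

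Among the partners of A20 and other ubiquitin brakes, 0 of 9 were higher (13.9% of all tested genes) and 2 lower (12.8%), with a median of -0.10. Cyld, which encodes a deubiquitinase that like A20 restrains NF-kB, read 882 and 914 intensity units in Ets1-deleted and 1471 and 1222 in control arrays. It fell by 0.58 ± 0.12 (limma, adjusted p = 0.0038), and all 3 of its probe sets passed. Tnip1, whose product binds A20, fell by 0.36 ± 0.11 (limma, adjusted p = 0.0299). Its call was lost without any 1 of the 4 arrays, at -0.40 to -0.31 (adjusted p between 0.0632 and 0.199), and after subtraction of the array floor. Of the IKK complex and LUBAC, which makes linear ubiquitin chains, 0 of 5 were higher and 2 lower (median -0.14), against the same shares. Ikbkb, the gene of the kinase IKK beta, read 539 and 521 in Ets1-deleted and 720 and 778 in control arrays, and fell by 0.50 ± 0.11 (limma, adjusted p = 0.0052). Of its 4 bright probe sets 2 passed, and the mean over its probe sets gave -0.30. Sharpin, a LUBAC subunit gene, fell by 0.47 ± 0.11, with 1 of 2 bright probe sets past the threshold.

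In the MAP kinase arm, 4 of 8 were higher (13.9% of all tested genes) and 0 lower (12.8%), with a median of 0.32. All 4 belong to the route from TAK1 to p38 and JNK. Mapk14, which encodes p38 alpha, read 1633 and 1796 intensity units in Ets1-deleted and 1093 and 1071 in control arrays. It rose by 0.66 ± 0.11 (limma, adjusted p = 0.000842), and 3 of its 5 bright probe sets passed. Its upstream kinase genes Map2k6 (0.75 ± 0.14, and 1.13 with the array floor subtracted), Map2k4 (0.69 ± 0.11) and Map2k3 (0.36 ± 0.12, adjusted p = 0.0406) rose as well. Map2k3 no longer passed without control 1 (0.40), without control 2 (0.31), without Ets1-deleted 2 (0.26) and with the array floor subtracted (0.39), at adjusted p between 0.0773 and 0.21 in limma. The JNK genes Mapk8 and Mapk9 differed by 0.28 ± 0.12 and -0.22 ± 0.12 (adjusted p = 0.119 and 0.199 in limma).

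Of 10 other NF-kB target genes, 1 was higher (13.9% of all tested genes) and 4 were lower (12.8%), with a median of -0.23, while Tnfaip3 was higher. Nfkbiz, which encodes an atypical inhibitor of NF-kB, fell by 0.62 ± 0.11 (limma, adjusted p = 0.00112), with 2 of 3 bright probe sets past the threshold. Nfkbia, the gene of the classical inhibitor, read 2303 and 2266 intensity units in Ets1-deleted and 3005 and 3199 in control arrays on its brightest probe set (-0.44 ± 0.11, adjusted p = 0.0102 in limma). Its other 4 bright probe sets did not pass and ran from -0.15 to 0.17, and the mean over its sets was -0.07 (adjusted p = 0.535). The Nfkbia call was also lost without control 2 (-0.40, adjusted p = 0.0839). Birc3 (-0.40 ± 0.12, adjusted p = 0.0271) and Icam1 (-0.38 ± 0.12, adjusted p = 0.04) were lower in limma. Birc3 no longer passed without control 1 (-0.28, adjusted p = 0.264) without Ets1-deleted 1 (-0.36, adjusted p = 0.0857) and after subtraction of the array floor (-0.43, adjusted p = 0.0699). Icam1 no longer passed without control 1 (-0.30, adjusted p = 0.225), without Ets1-deleted 2 (-0.26, adjusted p = 0.208), with the array floor subtracted (-0.41, adjusted p = 0.0942) and with no filter (adjusted p = 0.0626). Tnf rose by 0.46 ± 0.11 (limma, adjusted p = 0.00861), or by 0.73 with the array floor subtracted, and no longer passed without control 2 (0.41, adjusted p = 0.0701). Relb read 266 and 262 in Ets1-deleted and 260 and 268 in control arrays.

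**Figure D3:**
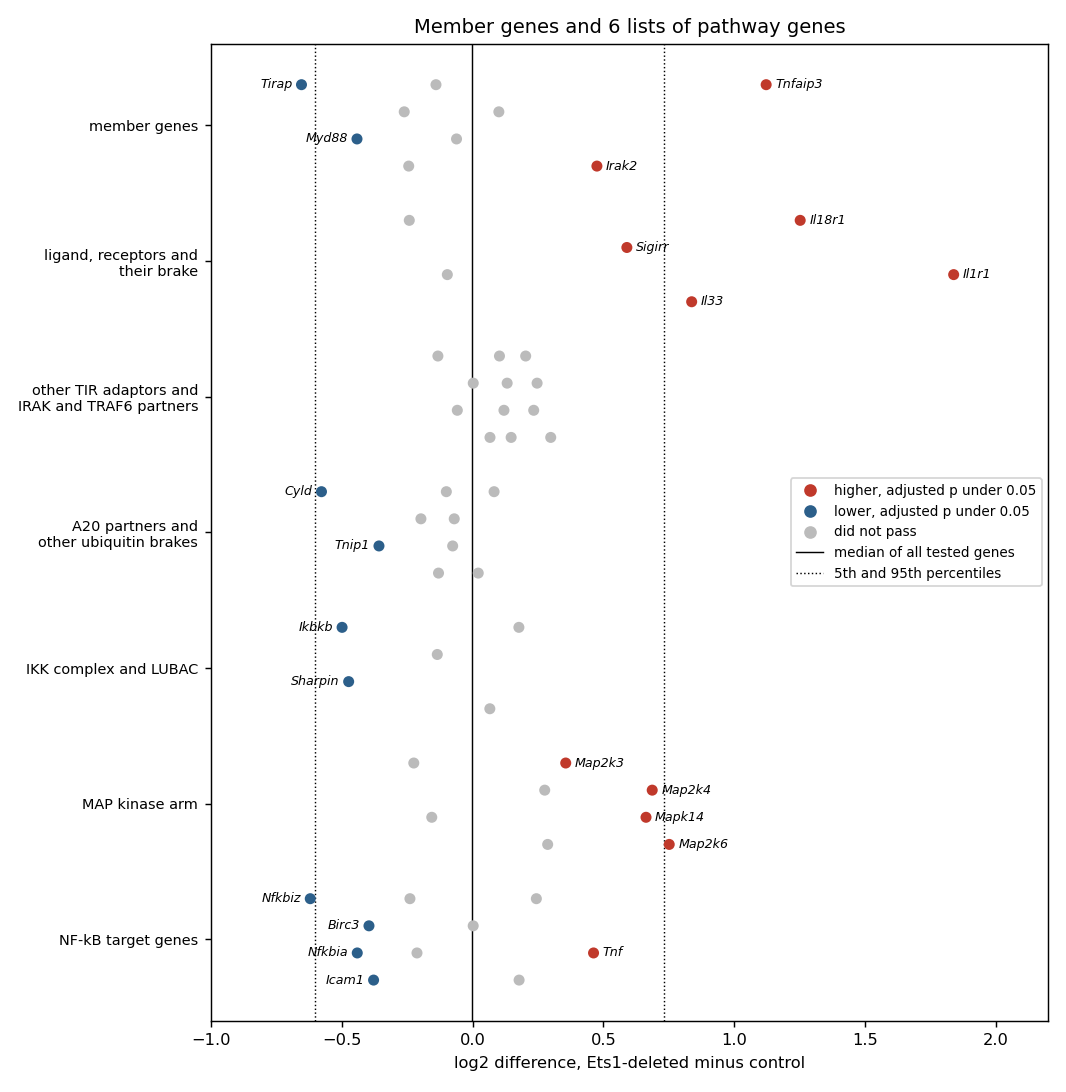
Log2 difference (Ets1-deleted minus control) of the 9 genes and of the 50 tested genes in 6 lists, with 1 point per gene, and names given where the adjusted p in limma is under 0.05. Lines mark the median of all tested genes and their 5th and 95th percentiles (-0.60 and 0.73). Called ligand, receptor and MAP kinase genes lie to the right, called genes of the A20 partner, IKK and LUBAC lists to the left, and 4 of 5 called NF-kB targets to the left while Tnfaip3 lies to the right.

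**Figure D4:**
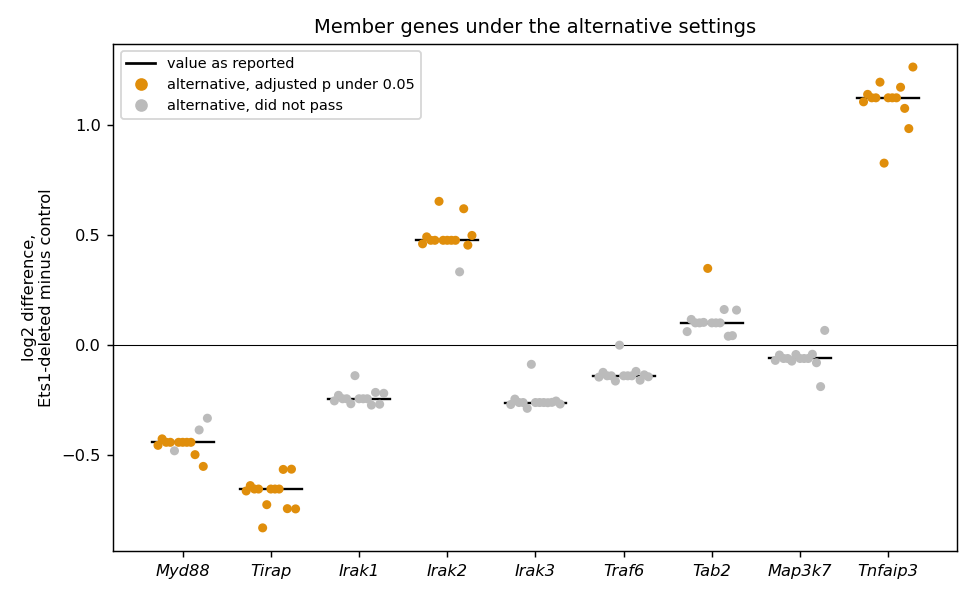
Log2 difference (Ets1-deleted minus control) of the 9 genes under 13 alternative settings (points) beside the value as reported (line), with orange points where the adjusted p in limma is under 0.05. Tnfaip3 and Tirap passed in every setting shown, Myd88 in 10 and Irak2 in 12.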

How the data were processed

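RNA of the sorted cells was amplified, labelled with biotin and hybridised to 1-colour Affymetrix arrays, per the labels' protocols. The authors deposited 1 intensity per probe set and array, summarised with RMA per the submitters' processing notes. No software, version or later scaling is given in the sources used here. From their range (39.5 to 23291) these intensities were taken to be linear, and log2 of the deposited values was computed here. Array medians (96.5 to 97.7) lay close together and no further normalization was applied. Such values level off near their lower end, which understates folds of dim genes, and the number of arrays limits the precision. Probe sets were named through the platform annotation (34958 of 45101 with 1 symbol). Genes were compared with limma 3.58.1 (lmFit, eBayes; R 4.3.3) over the brightest probe set of each gene, without covariates, two-sided, with 2 residual and 9.75 prior degrees of freedom. With 2 arrays in each group the smallest p of an exact permutation test is 0.333. The code of the fit was checked on simulated data with equal noise for all genes. The planted differences were larger than those of Tirap, Irak2 and Myd88, so this check does not bear on such calls. The genes and lists were chosen with earlier results of these data known. Named were the 9 genes, Ets1, markers, the genes between Ets1 and Tirap, list genes past the threshold or with the 2 smallest p-values of a list, and the 3 genes closest in pattern to Tnfaip3 and to Tirap. Il1rap, Il18rap, Ube2n, Mapk8, Mapk9, Relb, Gata3 and Il7r were named for their role. Alternatives were repeated quantile normalization, median centring, no or a stricter filter (70th percentile), subtraction of each array's 5th percentile (floor of 16 intensity units), the mean over probe sets, 1 row per probe set, a replicate block, a variance trend and leaving out each array.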

Additional observations from a re-analysis of the deposited data

How the results depend on the processing

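Over the 9 genes and 13 alternatives, 111 values kept their direction and their side of the threshold. The 4 lost calls (Myd88 in 3 settings, Irak2 in 1) and the 1 gained (Tab2, mean over probe sets) are given above. Map3k7 ranged from -0.189 to 0.066 with 1 array left out and changed sign without Ets1-deleted 2 (adjusted p = 0.776 in limma). The count of called genes among the 9 was 4, and 3 to 5 under the alternatives that keep all arrays (3 with the array floor subtracted, 5 with the mean over probe sets). With 1 array left out it was 3 to 4, that of all tested genes 2238 to 2736, that of the pathway lists 13 to 16, and the Ets1 difference -3.18 to -2.80, in fits that let the remaining array share the spread of the other genotype. With 1 row per probe set 4797 of 19845 rows passed, against 2900 genes, since more rows were tested. The labels number the replicates alike in both groups but name nothing that pairs them, and across genes the same-numbered arrays deviated together with r = 0.17. A replicate block gave 4 calls among the 9 genes, 17 in the pathway lists and 3252 in all (2900 without it), and changed no call of a gene named among the 9 or in the lists. Genes near the lower end of the scale, such as Il33 in the controls and the dimmer Tnfaip3 probe set, have folds that this scale understates.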

Other observations

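Some genes outside the route had nearly the same pattern over the 4 arrays as Tnfaip3, by the root mean square distance between log2 values centred on each gene's mean. Predicted genes and clones were passed over, by rules on names that also drop genes whose symbol starts with a capital letter and a digit. The closest was Serpinb1a, a gene of an inhibitor of granule proteases, at a distance of 0.016. It read 737 and 620 intensity units in Ets1-deleted and 321 and 306 in control arrays. Gng12, which encodes a G protein gamma subunit, followed at 0.030 and Lztfl1 at 0.036, with differences of 1.15 and 1.05. Closest to Tirap were Cd81, a tetraspanin gene (0.035), Nmur1, the neuromedin U receptor gene of ILC2 (0.037), and Nol8 (0.041). Nmur1 read 200 and 213 in Ets1-deleted and 356 and 307 in control arrays. Within a wider distance of 0.1 lay 56 of the tested genes not passed over for Tnfaip3 and 148 for Tirap.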
